A study of Mus musculus with 6 samples.

Results

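The mitochondrial ribosomal proteins build the ribosome that works inside mitochondria. Members were taken by symbol, as every gene named Mrpl or Mrps followed by digits and at most 1 final letter, with 1 probe set per gene, the one annotated with exactly 1 symbol that had the highest mean over the arrays. This gave 77 genes of 19938 tested, 48 Mrpl genes and 29 Mrps genes. RefSeq lists 78 such genes in assembly GRCm38.p6, and Mrpl53 alone had no value, because its probe set also names Ccdc142. Affymetrix mouse Gene 1.0 ST arrays were hybridised with RNA of murine prostate cancer cells, from 3 control samples and 3 samples treated with VPA, and the labels call them biological replicates. VPA, valproic acid, is an antiepileptic fatty acid that blocks class I histone deacetylases. The sources used here do not state its dose or duration, nor which cell line it was. Other label fields call the control samples differentiated 129SV stem cells and the VPA samples undifferentiated stem cells with Stra8-EGFP/Rosa26 as strain. The groups here follow the titles, so every direction rests on them.

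Mitochondrial ribosomes translate the few messenger RNAs of the mitochondrial genome, which encode core subunits of the respiratory chain and of ATP synthase. Their RNAs are transcribed from mitochondrial DNA, whereas all of their proteins are encoded in the nucleus, made in the cytosol and imported. Many of the proteins descend from bacterial ribosomal proteins, and others were added during the evolution of mitochondria. The names follow the subunit in which a protein was first placed, Mrpl for the large one that forms peptide bonds and Mrps for the small one that reads the messenger. Mrps30 and Mrps18a were later found in the large subunit of the mammalian ribosome, and Mrps36 was later placed in the oxoglutarate dehydrogenase complex.

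The values are log2 intensities, and a difference is VPA minus control on that scale. Their array medians lay between 7.15 and 7.18. Differences were tested with limma over all genes, and a gene counted as changed at a Benjamini-Hochberg adjusted p under 0.05. Of the fixed marker lists, 10 of 12 prostate epithelium genes were measured, and none passed. Their group means ran from 3.50 for Pbsn, a secreted prostate protein gene, with VPA, to 7.93 for Hoxb13, a prostate homeobox gene, with VPA. All 7 pluripotency genes had lower values with VPA and none passed, while 41.4% of all genes were higher. An unadjusted p under 0.05 was found for 3 of the 7 (42.9%), beside 18.1% of all genes. The groups did not overlap in 3 of the 7 (42.9%), beside 23.1% of all genes. The mean log2 level of the 7 genes was 6.51 to 6.70 over the control arrays and 6.33 to 6.46 over the VPA arrays. Among them Pou5f1 lay between 4.99 and 5.86, Nanog between 6.08 and 6.56 and Sox2 between 10.98 and 11.71. For fibroblasts, Dcn lay between 13.98 and 14.13. The fibroblast genes did not move together, with 3 higher and 2 lower under VPA, from -0.46 for Col3a1 to 0.21 for Col1a2. None of the 5 fibroblast, 4 leukocyte or 3 endothelial genes measured passed. The list means were 9.94 to 10.16 in control and 9.95 to 10.20 in VPA arrays for fibroblasts, 6.14 to 6.25 and 5.84 to 6.16 for leukocytes, and 6.82 to 7.14 and 6.91 to 7.16 for endothelium. The deposited values carry no detection call, so none of these markers can be called absent, and their part in the differences below was not tested. In bulk RNA, fewer cells of a type and less RNA per cell cannot be told apart.

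None of the 77 mitochondrial ribosomal protein genes changed with VPA, against 2.34% of all genes tested, of which 1.71% were higher and 0.632% lower. The member nearest to the threshold was Mrps33, higher with VPA at a limma adjusted p of 0.0567, and the next was Mrps5 at 0.103. At an unadjusted p under 0.05 there were 8 members, 5 higher and 3 lower, which is 10.4% of the members beside 18.1% of all genes (9.82% higher and 8.3% lower). The groups did not overlap in 15 members, 9 higher and 6 lower with VPA. That is 19.5% of the members, beside 23.1% of all genes (11.1% higher and 12% lower). By these counts the members lay below or near the background.

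The differences were small in both directions. They ran from -0.34 for Mrpl54 to 0.37 for Mrps33, with a median of 0.016, beside a median of -0.035 over all genes. Values were higher with VPA in 44 members and lower in 33, and 50 of the 77 lay above the median of all genes. The middle portion of the members, from the lower to the upper quartile, spanned -0.06 to 0.12, beside -0.13 to 0.08 over all genes. The standard deviation of the differences over the members was 0.139, against 0.215 over all genes. The difference was under 0.25 in size in 72 of 77 members (93.5%), beside 82.9% of all genes.

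The intervals put limits on what 3 arrays per group could have missed. The median standard error of the members' differences was 0.0923, beside 0.101 over all genes. The 95% interval lay within -0.5 to 0.5 in 73 of 77 members (94.8%), beside 81.4% of all genes. For all 77 it lay within -1 to 1, so a 2-fold change lay outside the interval of every member. The lowest bound was -0.58, for Mrpl54, and the highest 0.58, for Mrpl47. A p that misses the threshold does not show that a gene was unaffected, and a change of any size inside its interval remains possible. The intervals of the 8 members with an unadjusted p under 0.05 did not include 0. Each interval is for 1 gene and is not adjusted for the number of genes.

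**Figure D1:**
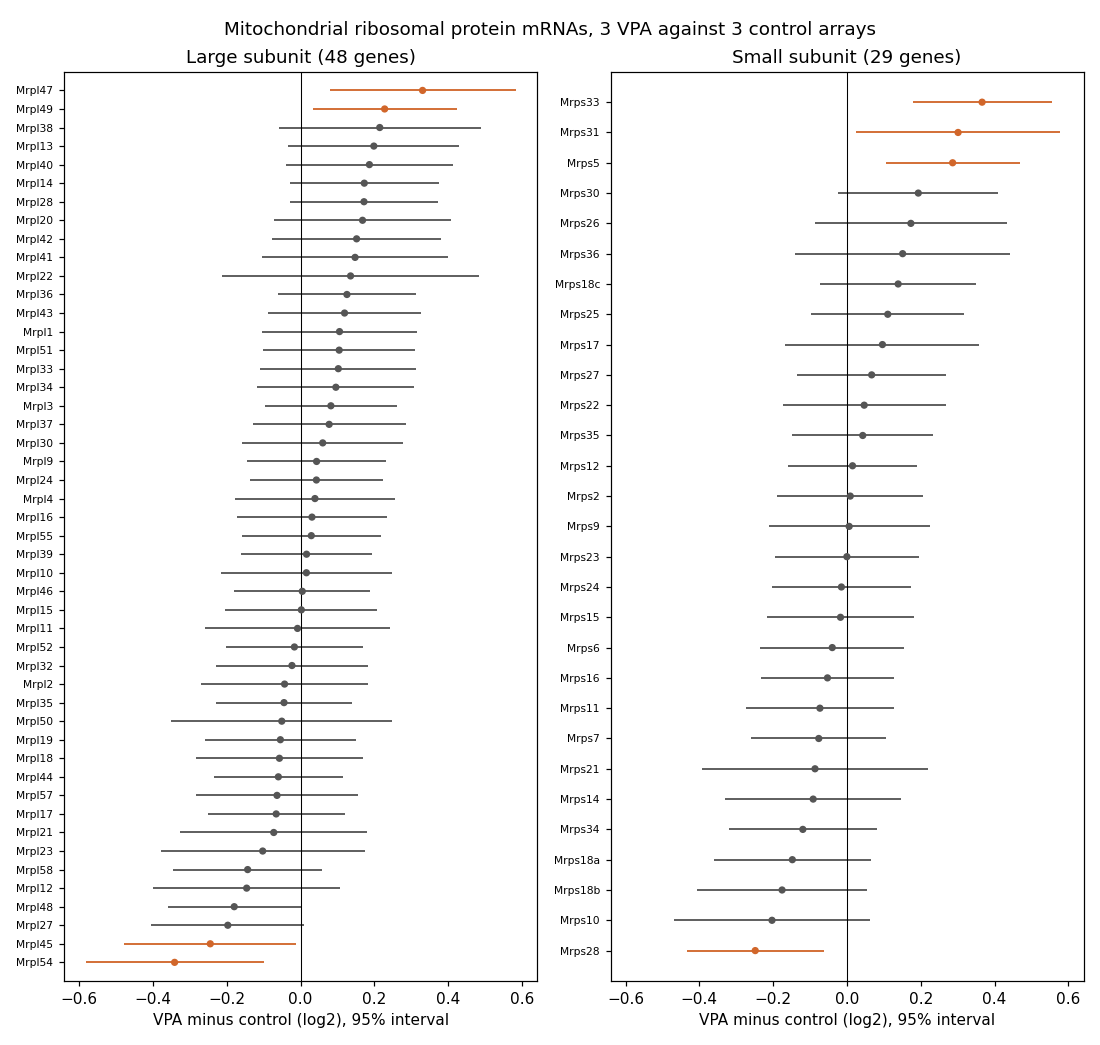
VPA minus control difference of each of the 77 genes on the log2 scale (horizontal axis) with its 95% interval from limma, for the 48 Mrpl genes (left) and the 29 Mrps genes (right), ordered by difference. Orange marks the 8 genes with an unadjusted p under 0.05; intervals extend from -0.58 to 0.58.

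**Figure D2:**
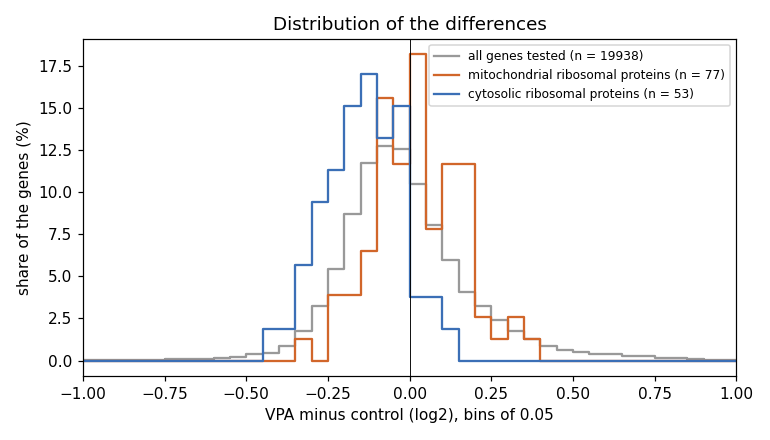
Share of genes in percent (vertical axis) by VPA minus control difference in log2 bins of 0.05 (horizontal axis), for all 19938 genes, the 77 mitochondrial and the 53 cytosolic ribosomal protein genes. The mitochondrial set lies around 0.016 and the cytosolic set around -0.13; differences beyond -1 or 1 are not drawn.

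Of the 8 genes with an unadjusted p under 0.05, 5 were higher with VPA. Mrps33, a small-subunit protein with no bacterial counterpart, had log2 values of 10.38, 10.52 and 10.43 in control replicates 1, 2 and 3 and 10.79, 10.87 and 10.77 in the VPA replicates. All VPA arrays lay above all control arrays. The difference was 0.37 (SE 0.0839), a 1.29-fold higher value with a 95% interval from 1.13 to 1.47. Its means were 10.44 ± 0.07 in control and 10.81 ± 0.05 in VPA arrays (SD, n = 3 each). With an unadjusted p of 0.0016 in limma's test it stayed outside the threshold at the adjusted p of 0.0567. Under 4 alternative settings it passed: a filter on low values (0.0398), a trended and robust prior (0.0348), array weights (0.0388) and the replicate number as a block (0.0346). Over all settings its adjusted p ran up to 0.202, without VPA replicate 2.

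Mrps5, the counterpart of bacterial S5, stood at 8.91, 8.95 and 8.91 in control arrays and at 9.27, 9.21 and 9.15 in VPA arrays. The groups did not overlap, and the control values were close together (SD 0.023). The difference was 0.29 (SE 0.0809, limma adjusted p = 0.103). Mrps31, a mitochondria-specific protein of the small subunit, had 7.90, 7.54 and 7.89 in control arrays and 8.04, 7.95 and 8.24 in VPA arrays. The groups did not overlap, and control replicate 2 was the lowest array. The difference was 0.30 (SE 0.123, limma adjusted p = 0.236), and 0.181 without control replicate 2.

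The other higher genes are of the Mrpl series. Mrpl47, the counterpart of bacterial L29, read 8.13, 8.23 and 8.15 in control arrays and 8.45, 8.73 and 8.31 in VPA arrays. Its VPA values spread widely, with an SD of 0.21 against 0.05 in the controls, and the difference was 0.33 (SE 0.112, limma adjusted p = 0.163). Without VPA replicate 2, the highest array, it was 0.215. Mrpl49, a mitochondria-specific large-subunit protein, read 10.18, 10.27 and 10.15 against 10.52, 10.41 and 10.35. The groups did not overlap, and the difference was 0.23 (SE 0.0869, limma adjusted p = 0.207).

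In the other direction, 3 genes were lower with VPA at an unadjusted p under 0.05. Mrpl54, a mitochondria-specific large-subunit protein, had log2 values of 9.25, 9.16 and 9.18 in control arrays and 8.70, 8.79 and 9.07 in VPA arrays. VPA replicate 3 lay close to the controls. The difference was -0.34 (SE 0.107, limma adjusted p = 0.137), or 0.789-fold with a 95% interval from 0.668 to 0.933. Without VPA replicate 3 it was -0.45 and passed, at an adjusted p of 0.0388. Mrps28, the counterpart of bacterial S1, stood at 8.17, 8.11 and 8.08 in control arrays and at 7.88, 7.80 and 7.93 in VPA arrays, with no overlap and a difference of -0.25 (SE 0.0825, limma adjusted p = 0.156). Mrpl45, which anchors the ribosome at the inner membrane near the exit of the nascent chain, read 9.38, 9.68 and 9.55 against 9.18, 9.40 and 9.30. The groups overlapped, since VPA replicate 2 exceeded control replicate 1, and the difference was -0.24 (SE 0.104, limma adjusted p = 0.255).

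**Figure D3:**
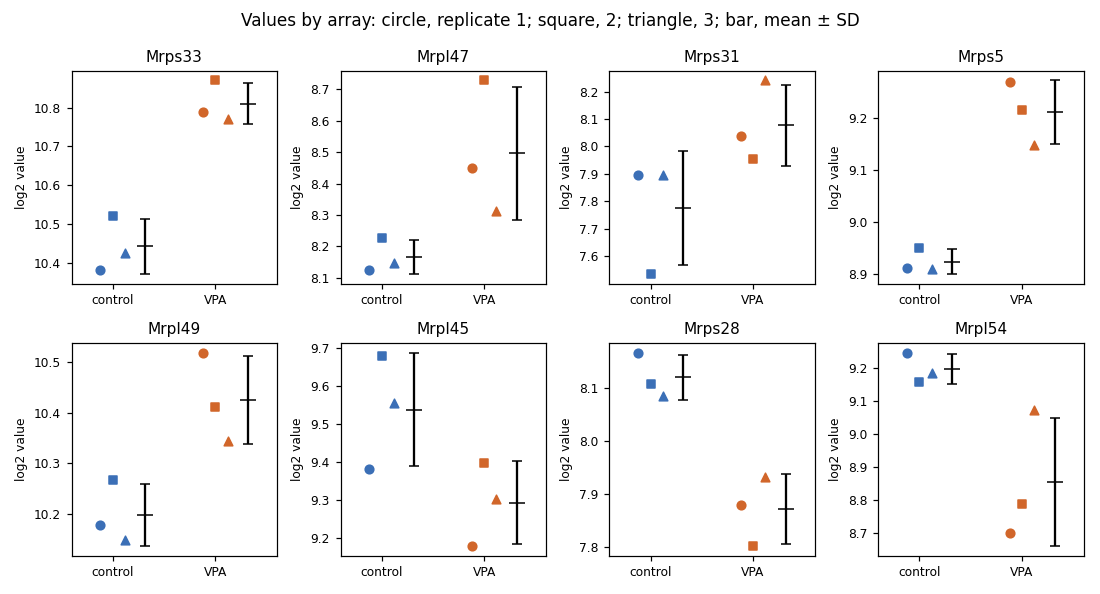
Log2 value (vertical axes, each on its own scale that does not start at 0) of the 8 genes with an unadjusted p under 0.05, by group, with 1 marker shape per replicate number and the mean ± SD (n = 3) beside each group. Mrpl45 is the 1 gene of the 8 whose groups overlap; VPA replicate 3 of Mrpl54, at 9.07, lies near the control values.

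Among the other members with higher values, the smallest p gave differences of 0.19 for Mrps30, which lies in the large subunit despite its name, 0.17 for Mrpl28 and 0.20 for Mrpl13, both with bacterial counterparts. In limma's test their adjusted p were 0.329, 0.346 and 0.347. Mrps30 was tight in the controls, at 8.44, 8.41 and 8.43, and its VPA values of 8.56, 8.80 and 8.51 lay above them. The difference fell to 0.105 for Mrps30 without VPA replicate 2 and to 0.121 for Mrpl13 without control replicate 1. Mrpl14, Mrpl36 and Mrpl3 were the other members with higher values and no overlap. On the lower side, Mrpl48 differed by -0.18, Mrpl27, whose bacterial counterpart reaches the peptidyl transferase centre, by -0.20, Mrps18b by -0.18 and Mrps10 by -0.20. Their limma adjusted p lay between 0.278 for Mrpl48 and 0.401 for Mrps10. The groups did not overlap for the first 3 of these 4, while Mrps10 overlapped. Mrps18b was at -0.0762 without VPA replicate 3, and Mrps10 at -0.108 without control replicate 1 and -0.123 without VPA replicate 2. Mrpl44 was the other member with lower values and no overlap.

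Members with particular roles did not pass either. Mrpl12 forms the flexible stalk that binds translation factors. It stood at 8.46, 8.15 and 8.27 in control arrays and at 8.11, 8.02 and 8.31 in VPA arrays, so the groups overlapped, at -0.15 (SE 0.113, limma adjusted p = 0.522). The Mrpl12 value was -0.0619 without control replicate 1, and leaving out VPA replicate 2 gave -0.0811 and VPA replicate 3 gave -0.229. Mrpl58, a peptidyl-tRNA hydrolase built into the ribosome, differed by -0.14 (SE 0.0903, limma adjusted p = 0.433), and by -0.0893 without control replicate 1. For Mrps12, the counterpart of the decoding protein S12, the 6 arrays lay between 7.26 and 7.31, and the difference was 0.015 with a 95% interval that gives at most a 1.14-fold increase. Mrpl41 differed by 0.15 (SE 0.112, limma adjusted p = 0.514), and by 0.0789 without control replicate 2 and 0.0451 without VPA replicate 3. Dap3, the GTP-binding protein of the small subunit that carries another symbol, differed by 0.15 (SE 0.0926, limma adjusted p = 0.436), and by 0.093 without control replicate 1.

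The counts by symbol, Mrpl or Mrps, and by origin are given next. Mrps30, Mrps18a and Mrps36 are counted among the Mrps genes by their symbols. Of the 48 Mrpl genes, 29 were higher and 19 lower, with a median difference of 0.030, and 4 (8.33%) had an unadjusted p under 0.05. Of the 29 Mrps genes, 15 were higher and 14 lower, with a median of 0.00603, and again 4 (13.8%) had an unadjusted p under 0.05, beside 18.1% of all genes. In the 48 members with a bacterial counterpart the median was 0.00414, with 25 higher and 23 lower. In the 29 mitochondria-specific members it was 0.067, with 19 higher and 10 lower. An unadjusted p under 0.05 was found for 5 of the 29 mitochondria-specific members (17.2%), namely Mrps33, Mrps31, Mrpl49, Mrpl45 and Mrpl54, and for 3 of the 48 with a bacterial counterpart (6.25%). Neither share exceeded the 18.1% of all genes. The difference between these classes was not tested.

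The arrays of the VPA group differed among themselves. Relative to each gene's mean over the 6 arrays, the median of the 77 members was 0.014, -0.012 and -0.012 in control replicates 1, 2 and 3. It was -0.047, 0.013 and 0.053 in VPA replicates 1, 2 and 3, so the VPA arrays lay on both sides of the controls. VPA replicate 1 was the lowest VPA array for 45 members (58.4%), beside 25.3% of all genes. VPA replicate 3 exceeded VPA replicate 1 in 59 members (76.6%), beside 46.2% of all genes. The median difference of the members was 0.0536 without VPA replicate 1.

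The proteins of the cytosolic ribosome showed the same order of the VPA arrays with a wider range. Their 53 measured genes had medians of 0.12, 0.0047 and 0.092 in the control arrays and -0.21, -0.043 and 0.069 in VPA replicates 1, 2 and 3. VPA replicate 1 was the lowest VPA array for 44 of the 53 (83.0%). None of the 53 passed limma's test, and 3 (5.66%), all lower, had an unadjusted p under 0.05, beside 18.1% of all genes. Values were lower with VPA in 48 and higher in 5 (9.43%), while 41.4% of all genes were higher. Their median difference was -0.13, beside 0.016 for the mitochondrial set. Rplp0, a protein of the cytosolic stalk, differed by -0.33 and Rpl12 by -0.41 (limma adjusted p 0.126 and 0.128). Rplp0 passed without VPA replicate 3, at -0.43 with an adjusted p of 0.0477, and without control replicate 2 and VPA replicate 3 together (0.0359). Many cytosolic ribosomal protein genes have near-identical copies in the genome, so single values among them are uncertain.

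**Figure D4:**
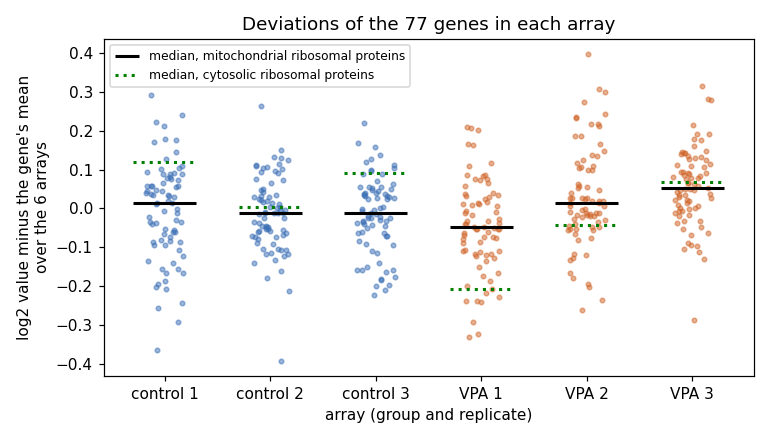
Deviation of each of the 77 genes from its own mean over the 6 arrays (vertical axis, log2) in each array (horizontal axis); points are genes, black bars their median and dotted green bars the median of 53 cytosolic ribosomal protein genes. VPA replicate 1 has the lowest median for both sets, at -0.047 and -0.21.

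The other genes of mitochondrial translation were measured beside the ribosomal proteins. Of 5 genes listed as mitoribosomal proteins with other symbols none passed, counting Oxa1l, an insertase that binds the ribosome. Chchd1, a small-subunit protein, read 7.29, 7.0 and 7.26 in control arrays and 6.71, 6.79 and 7.06 in VPA arrays, so that VPA replicate 3 lay above control replicate 2, with a difference of -0.33 (limma adjusted p = 0.181). It passed without those same arrays, control replicate 2 and VPA replicate 3, at -0.52 with an adjusted p of 0.0273. Gadd45gip1, of the large subunit, differed by -0.20 (limma adjusted p = 0.284). Of 12 translation factors none passed and 9 (75%) were higher, beside 41.4% of all genes, with a median of 0.092. An unadjusted p under 0.05 was found for 3 of the 12 (25%), all higher, beside 18.1% of all genes. The groups did not overlap in 4 of the 12 (33.3%), beside 23.1% of all genes. Mtrf1l, a release factor, differed by 0.29 and Guf1, an elongation factor GTPase, by 0.28 (limma adjusted p 0.169 and 0.219). Without control replicate 1 Guf1 was at 0.17. Of 26 genes of ribosome assembly and ribosomal RNA modification none passed, 11 were higher and 15 lower, with a median of -0.029. An unadjusted p under 0.05 was found for 6 of the 26 (23.1%), 2 higher and 4 lower, and 8 (30.8%) did not overlap. Both shares lay above those of all genes, as for the translation factors, and this was not tested. The ribosomal RNA methyltransferase gene Nsun4 and the helicase gene Dhx30 each differed by -0.27 (limma adjusted p 0.16 and 0.195).

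Enzymes that charge mitochondrial transfer RNAs were measured with 19 genes, of which 1 rose and 18 did not pass. Over all genes tested 2.34% changed and 1.71% rose, so 1 call in a list of this size is not read as a result about the list. The gene that rose was Mars2, the mitochondrial methionyl-tRNA synthetase. Its log2 values were 7.94, 8.02 and 8.16 in control arrays and 8.70, 8.43 and 8.44 in VPA arrays. All VPA values lay above all control values. Mars2 was higher by 0.48 (SE 0.105, limma adjusted p = 0.0487). This call held without VPA replicate 3, at an adjusted p of 0.046. Leaving out any other single array ended it, with adjusted p of 0.182, 0.0796 and 0.0872 for the controls in their order and 0.166 and 0.114 for VPA replicates 1 and 2. It was also lost with a second quantile normalization (0.0556), with every probe set tested (0.204) and without control replicate 2 and VPA replicate 3 together (0.0604). Of 15 genes of mitochondrial transcription and its regulators none passed and none had an unadjusted p under 0.05. Tfam, which packages mitochondrial DNA and helps start its transcription, differed by 0.20 and the elongation factor gene Tefm by -0.16 (limma adjusted p 0.345 and 0.381). Tefm was at -0.0961 without VPA replicate 1.

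A total of 8 members had more than 1 probe set with their symbol alone, which gives a second reading for the symbol on the same arrays. In 7 of the 8 both readings had the same sign, though the second reading of Mrpl41 was only 0.00075 (SE 0.117). Whether the sets of a gene read the same sequence was not tested. Mrps33 was higher in both, by 0.37 in the probe set used (10563829) and by 0.33 in the other (10544243), where the arrays read 9.86, 9.97 and 9.95 in control and 10.23, 10.32 and 10.20 with VPA. Mrps5 was also higher in both, by 0.29 and 0.20, though its second set is numbered among other genes than the set used. Mrpl47 was higher by 0.33 in the set used and lower in the second one, at -0.20, with values of 6.74, 6.63 and 6.78 in control and 6.45, 6.40 and 6.72 with VPA. The direction of Mrpl47 therefore depends on the probe set.

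The numbers of the probe sets follow the genome. Of neighbouring numbers with 1 gene each, 94.3% named genes on the same chromosome of GRCm38.p6. For 72 of the 77 members at least 2 of the 4 nearest numbers named genes of the member's own chromosome. For Mrps33, Mrpl27, Mrpl41, Mrpl48 and Mrpl51 none of the 4 did. The set used for Mrps33 lies between the numbers of Svip and Nipa2 on chromosome 7, while Mrps33 itself is on chromosome 6, where the second set lies between Braf and Dennd11. Values of these 5 genes may include a copy elsewhere in the genome, which was not tested, and they are uncertain for that reason. With the readings on the own chromosome, Mrps33 was at 0.33 with a limma adjusted p of 0.0793, Mrpl41 was at 0.00075, and Mrpl48 had no value left. Mrpl51 was at 0.036. Mrpl27 was further from 0, at -0.27, with 8.45, 8.46 and 8.41 in control and 8.16, 8.15 and 8.21 with VPA. In limma's fit over every probe set its unadjusted p was 0.00905 and its adjusted p 0.259. That fit passed only 2 probe sets in all, and gave the second set of Mrps33 an adjusted p of 0.233. The 0.259 is therefore not on the scale of the 0.0793 above. With the readings on the own chromosome 9 members (11.8%) had an unadjusted p under 0.05, beside 18.1% of all genes. The second sets of Mrpl23 and Mrps36, which were not used, are also numbered among genes of other chromosomes. That of Mrps5 (10480379) lies between the numbers of 4921504E06Rik and Arhgap21, and the set used between those of Gpat2 and Acoxl. All of these are on chromosome 2, and the check by chromosome cannot find a copy within the same chromosome. Whether the second set of Mrps5 reads such a copy was not tested.

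**Figure D5:**
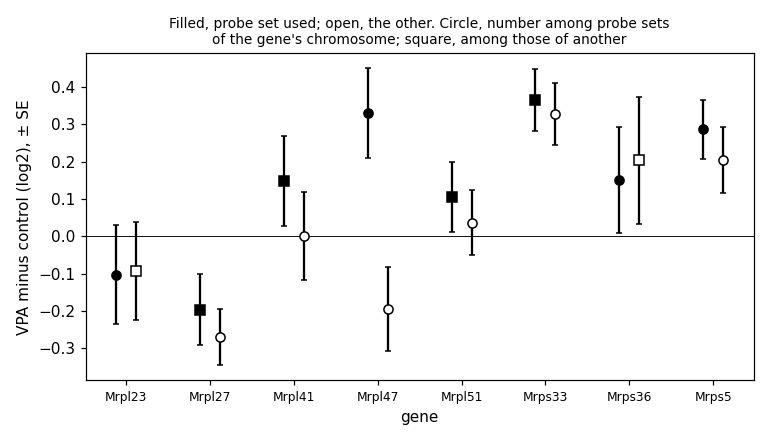
VPA minus control difference ± SE on the log2 scale (vertical axis) for both probe sets of the 8 genes with more than 1, from a fit over every probe set. Filled symbols are the sets used and squares those numbered among genes of another chromosome; the pair of Mrpl47 has opposite signs, at 0.33 and -0.20.

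Promoters were searched for shared letters, which the choice of members did not use. RefSeq promoters of GRCm38.p6, from 250 bases before to 50 after a start site, were given for 68 of the 77 genes, with 74 windows in all, and for 15614 tested genes, with 19177 windows. Both strands were searched. CCGGAAG, the core bound by ETS factors such as GABP, was in 33.8% of the members' windows and in 12.1% of all. AAGATGGC, a core of YY1 sites, was in 16.2% and 3.18%. Its first letters can overlap the last of CCGGAAG. GCATGCGC, a core of sites of the respiratory factor NRF1, was in 10.8% (8 windows) and 3.78%. CACGTG, the E-box bound by Myc, was in 9.46% and 8.24%, CCAAT in 39.2% and 37.4%, and TATAAA in 6.76% and 11.5%. Mean GC content was 59% in the members' windows and 57.2% in all. In the cytosolic ribosomal protein genes CCGGAAG was in 34.7%, AAGATGGC in 4.08% and GCATGCGC in 6.12%. Among members with higher values under VPA, CCGGAAG was in 30.8% of windows, and among those with lower values in 37.1%, with AAGATGGC in 15.4% and 17.1% and GCATGCGC in 12.8% and 8.57%. A match is a description of the sequence and not a binding site.

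The 120 bases before the start site are shown for 3 members with a match in that stretch and for Mrps33, the member nearest to the threshold, with matches to the 6 searched motifs in capitals. Mrpl3 (chr9, + strand) holds CCAAT on the reverse strand and the ETS core, Mrps22 (chr9, - strand) the ETS core close to its start, and Mrpl32 (chr13, - strand) the NRF1 core in 3 places, at the first of them on both strands. Mrps33 (chr6, - strand) has none of the 6 in these 120 bases, and its 300-base window holds the ETS core outside them.
Mrpl3 (GRCm38.p6 chr9:105053148-105053267): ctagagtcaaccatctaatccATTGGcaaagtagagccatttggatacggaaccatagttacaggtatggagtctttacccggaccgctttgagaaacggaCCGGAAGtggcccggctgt
Mrps22 (GRCm38.p6 chr9:98601680-98601799): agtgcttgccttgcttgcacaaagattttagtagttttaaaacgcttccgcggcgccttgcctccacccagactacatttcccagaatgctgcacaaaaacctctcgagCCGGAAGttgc
Mrpl32 (GRCm38.p6 chr13:14613038-14613157): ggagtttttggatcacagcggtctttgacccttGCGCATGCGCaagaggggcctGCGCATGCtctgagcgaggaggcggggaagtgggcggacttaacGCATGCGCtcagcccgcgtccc
Mrps33 (GRCm38.p6 chr6:39810937-39811056): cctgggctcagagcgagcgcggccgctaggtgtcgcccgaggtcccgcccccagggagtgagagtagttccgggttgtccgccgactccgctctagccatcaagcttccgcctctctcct
Their differences with VPA were 0.08 for Mrpl3, 0.047 for Mrps22, -0.023 for Mrpl32 and 0.37 for Mrps33, and none passed limma's test.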

How the data were processed

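Groups and replicate numbers of the 3 control and 3 VPA samples came from their titles. Total RNA was labelled with biotin under the array maker's protocol, per the labels. The authors deposited log2 values from RMA, computed in Expression Console of Affymetrix (per the submitters' processing notes). RMA gives all arrays nearly 1 distribution, so a shift shared by most transcripts would not show, and the table carries no detection call. For program versions and the build of the probe annotation, the sources used here give nothing. The labels say biological replicates without saying whether cultures were separate, so p-values measure the spread between these samples.

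Of 35556 probe sets, 21789 named exactly 1 symbol and gave 19938 genes, 1621 named several and 12146 were unnamed here. Entrez identifiers matched 21698 of the 21789 to RefSeq. VPA was compared with control by lmFit and eBayes in limma 3.58.1 (R 4.3.3), two-sided, adjusted by Benjamini-Hochberg over all genes, with no filter. No set test was run, and the scripts were tested on simulated data first. Members and lists were chosen with earlier results of these data known. The text names changed genes, the 8 members with the smallest p in each direction, and Mrpl12, Mrpl58, Mrps12, Mrps18b, Mrpl41, Mrps30 and Dap3. From each other list it names the changed genes or, with none, the 2 with the smallest p. Chosen after their values were seen were the marker genes given with values, and Mrpl3, Mrps22 and Mrpl32 for their promoters. The same holds for Mrpl14, Mrpl36, Mrpl3 and Mrpl44, for groups that did not overlap, and for Mrpl38, Mrpl51 and Mrpl53.

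Alternatives were genes at log2 6 or above in 3 or more arrays, quantile normalization repeated, centring on array medians, a trended and robust prior, a replicate block, weighted arrays, averaged probe sets, testing of every probe set, a threshold of 0.01, and omission of single arrays. Added after seeing the data were probe sets numbered among genes of the own chromosome, and omission of control replicate 2 with VPA replicate 3.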

Additional observations from a re-analysis of the deposited data

How the results depend on the processing

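The count of changed mitochondrial ribosomal protein genes was 0 by limma with the settings of the report, where 8 had an unadjusted p under 0.05, and 0 or 1 when single arrays were left out (1, Mrpl54, without VPA replicate 3). It was 1, Mrps33, with the filter on low values, the trended and robust prior, array weights and the replicate block. In those settings 4.14%, 3.43%, 3.58% and 6.01% of all genes changed, and 4.09% without VPA replicate 3. The count of members was 2, Mrpl38 and Mrpl54, without control replicate 2 and VPA replicate 3 together. That choice was made after seeing the data, and 6.77% of all genes changed there. The count of members was 0 in the other settings. The median difference of the members ran from -0.00719, without VPA replicate 3, to 0.0536, without VPA replicate 1, when 1 array was left out. The sign of this median is not stable, since a second quantile normalization gave -0.00874. Over all genes 467 changed, and 20 (without control replicate 1) to 815 (without VPA replicate 3) when 1 array was left out. The count was 714 with array weights, 2 of all probe sets, 43 at an adjusted p under 0.01 and 1349 without both of those arrays. Mrpl41 turned to -0.0239 there, and no other gene named by the rule changed sign. With the replicate number as a block 1199 genes changed. Same-numbered samples correlated at 0.0841, 0.451 and 0.284 in their deviations, and samples of unlike number at -0.429 to 0.2. Each VPA array correlated best with the control of its own number. The first of the same-numbered values lay under 0.1. The main fit left the samples unpaired, since the labels name no batch. Whether they were paired is not known. The causes of these moves were not tested. With 3 arrays per group, differences as small as those of most members cannot be told from 0, and no setting measures signal over background.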
